A study of Mus musculus with 18 samples.

Results

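Netrins are secreted guidance proteins of the laminin-related kind that draw growing axons in or push them away, depending on which receptors the axon carries. DCC and its relative neogenin mediate mostly attraction, UNC5 receptors alone or together with DCC mediate repulsion, and the adhesion molecule DSCAM can also bind netrin-1. In the embryonic cord netrin-1 is known from the floor plate and the neighbouring progenitor zone, and DCC from commissural neurons, whose axons cross the midline. The genes of this system followed here were chosen by name: the ligand genes Ntn1, Ntn3 and Ntn4, the DCC family genes Dcc and Neo1, Dscam, and the UNC5 family genes Unc5a, Unc5b, Unc5c and Unc5d. All 10 were found among the 27179 genes of the gene-level tables, and 17 of the 35729 transcripts of the transcript table belonged to them.

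RNA was sequenced from spinal motor neurons (MNs) sorted from 18 mouse samples. At E12.5 the cells were brachial and carried the Mnx1-GFP reporter, with 6 samples labelled wildtype (for the comparison with mutants, the study describes its controls as Hoxc8 fl/fl) and 3 labelled Hoxc8 MNΔ, in which Olig2-Cre, active in MN progenitors, deleted a floxed Hoxc8. At P8 all 9 samples were labelled wildtype and came from Chat-IRES-Cre mice with the Ai9 tdTomato reporter, which marks every cell that has made Cre from the Chat locus, with 3 samples each from brachial, thoracic and lumbar cord. Cords of several animals were pooled per library, and the Mnx1 and Chat reporters also mark small groups of neurons other than MNs. The deposited tables hold 1 mean per gene over all libraries of a comparison beside the authors' own test results. No value per sample was therefore at hand, so no level below has an SD, and differences between control and Hoxc8 MNΔ cells or between regions at P8 were not analysed here. For the same reason Hoxc8 could not be checked library by library.

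The tables gave 3 different pools. The E12.5 pool averaged control and Hoxc8 MNΔ libraries per RefSeq transcript. A mixed-stage pool averaged E12.5 and P8 libraries per gene, which by the study's description were brachial. The P8 pool averaged the brachial, thoracic and lumbar libraries per gene, and the 3 regional tables held identical means. The smallest means that recur, which are those of a single read in a single library, took 6 different values in the E12.5 pool, 8 in the mixed-stage pool and 8 in the P8 pool. They spanned 1.29-fold, 1.77-fold and 12.05-fold, so size factors were far less even among the P8 libraries. Which of the 6 wildtype E12.5 samples entered which table is not given in the labels. If the mixed-stage table holds only wildtype E12.5 and P8 brachial samples, its 8 values need at least 5 E12.5 libraries, and at least 2 of these would also be in the E12.5 pool. The study itself describes 3 replicates at each stage, fewer than these 8 values need, and this conflict is not resolved. The weight of each stage in a mixed-stage mean is therefore uncertain, and the P8 brachial libraries can be in both the mixed-stage and the P8 pool. Each mean is in normalized counts, that is, read counts divided by the library's size factor, and a level is that mean as a share of the sum over all features of its table, in ppm, with the whole sum set to 1000000 ppm.

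The labelled cell type was checked against marker lists. MN genes (Chat, Slc18a3, Slc5a7, Mnx1, Isl1, Isl2, Lhx3 and Prph) all had means of at least 10 in the mixed-stage pool, where they summed to 249 ppm. In the P8 pool 4 of the 8 reached 10, they summed to 36.1 ppm, Mnx1 had a mean of 0.696 and Lhx3 was at 0. Chat, the gene whose locus drives the P8 reporter, had means of 147 in the mixed-stage pool and 14.1 in the P8 pool. The 8 oligodendrocyte genes made up 23.7% of the mixed-stage sum and 43.8% of the P8 sum. In both pools their share therefore exceeded that of the MN list, and astrocyte and microglia lists were also higher in the P8 pool, at 4365 and 559 ppm against 2296 and 295. Spinal interneuron genes went the other way, with a summed 557 ppm in the mixed-stage pool and 3.98 in the P8 pool, where 2 of 7 reached a mean of 10 and Pax2 was at 0. Floor plate genes summed to 150 and 43.5 ppm, neural progenitor genes to 151 and 111, endothelial genes to 33.1 and 62.0, and sensory neuron genes to 28.8 and 0.482. The progenitor genes did not move together. Olig2 had 30.7 ppm in the mixed-stage and 79.1 in the P8 pool, and Sox2 had 19.9 and 20.7. Lower in the P8 pool were Nes (73.0 and 7.57), Pax6 (19.7 and 0.323) and Hes5 (7.42 and 2.98). In the E12.5 pool only genes with 1 listed transcript were summed, for the reason given below. There 6 MN genes summed to 444 ppm, below 6 spinal interneuron genes at 1722 and 2 floor plate genes at 638. Below the MN sum were neural progenitor (378), astrocyte (134), sensory neuron (91.7), oligodendrocyte (15.9), microglia (8.07) and endothelial genes (6.52). Of the 3 astrocyte genes summed there, Slc1a3 had a mean of 1537, Aldh1l1 of 240 and S100b of 10.7. The part of these cells in the netrin results was not tested. In bulk libraries, fewer cells of a type and less RNA per cell cannot be told apart.

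**Figure D1:**
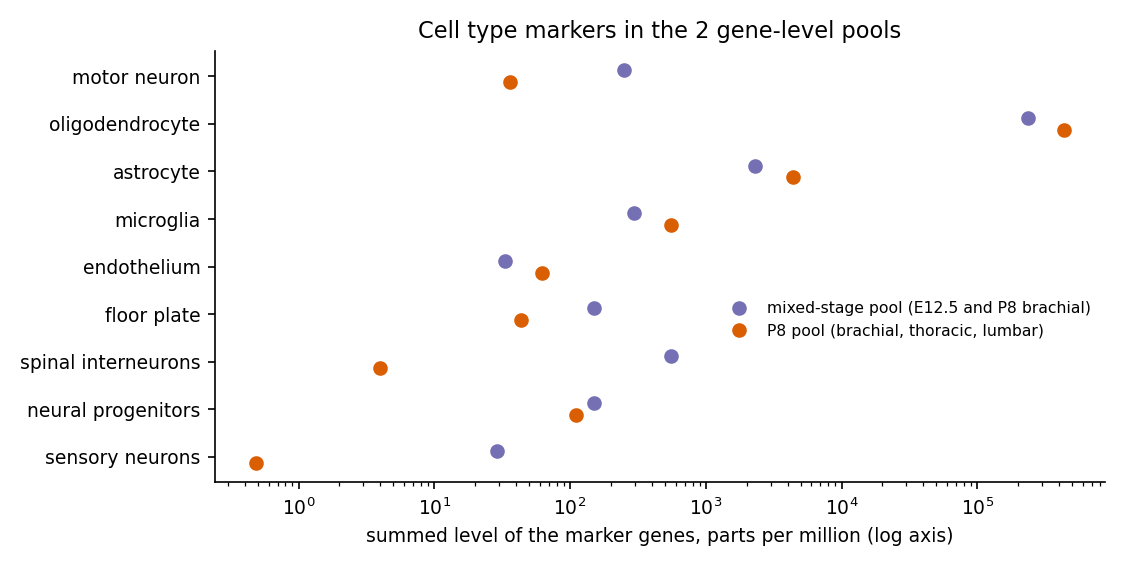
Summed level of each cell type marker list (horizontal log axis, ppm) in the mixed-stage pool (purple) and the P8 pool (orange); each point is 1 list in 1 pool, with no error since the tables hold means only. MN genes are at 249 and 36.1 ppm, while oligodendrocyte genes are the largest list in both.

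Before the members were compared, the transcript table was set against the gene table, because 4 members nearly vanished from it. Neo1 had a mean of 6110 normalized counts in the mixed-stage pool, whereas its transcripts NM_008684 and NM_001042752 had 3.31 and 0 in the E12.5 pool. For Unc5a the gene mean was 1425 and the transcript means were 37.6 (NM_153131) and 0 (NM_001311128). Unc5d had a gene mean of 751, 1 of its 5 transcripts (NM_153135) had a mean of 0.698 and the others were at 0. Both transcripts of Unc5c (NM_009472 and NM_001293561) were listed at 0 beside a gene mean of 391.

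These 4 genes have several transcripts in the table, and the 6 others have 1. Dcc, Ntn1, Ntn3, Ntn4, Dscam and Unc5b kept between 77.7% (Unc5b) and 271% (Ntn1) of their mixed-stage mean in the E12.5 transcript table. The same split ran through the table. Among genes with a mixed-stage mean of at least 100, the summed transcripts came to under 10% of the gene mean in 84.4% of the 4166 genes with several transcripts and in 7.11% of the 7282 genes with 1. The median was 0.701% of the gene mean for the first kind and 139% for the second. E12.5 values of Neo1, Unc5a, Unc5c and Unc5d are therefore not read as expression levels, and for these genes only the gene-level pools are used. The sum of the E12.5 table also lacks these reads, which raises the ppm of every other gene in it. Genes with several transcripts that still reached a mean of 10 stayed in the E12.5 reference for percentiles. Percentiles there can therefore be too high for the other genes and are not directly comparable with those of the other pools.

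**Figure D2:**
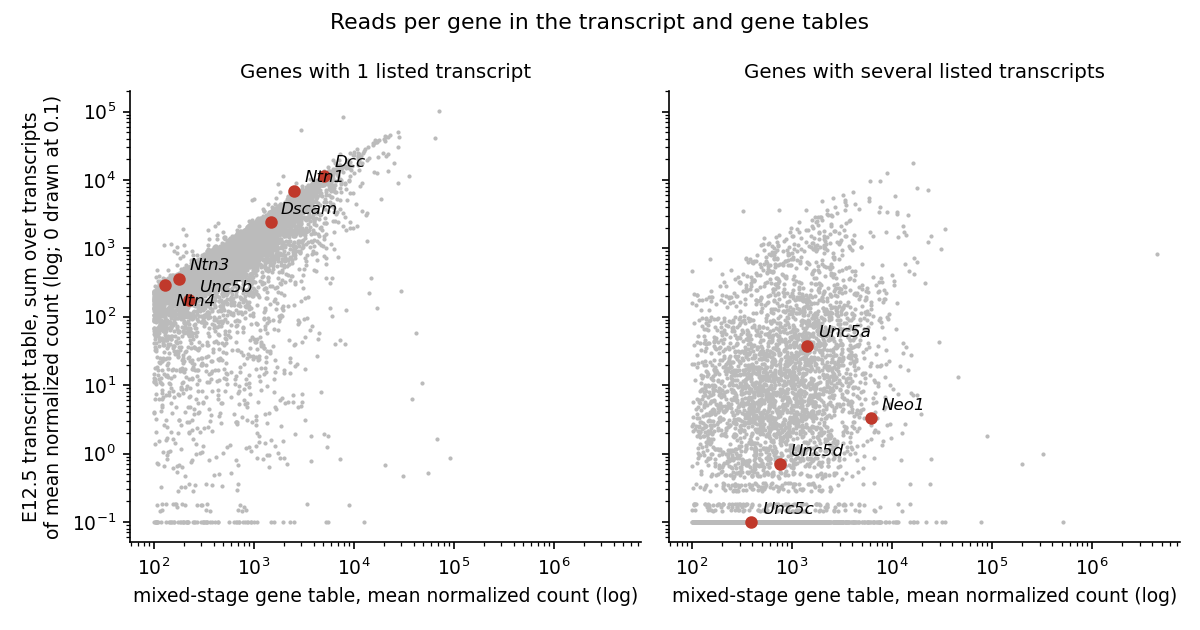
Summed mean normalized count over the transcripts of a gene in the E12.5 table (vertical log axis, 0 drawn at 0.1) against its mean in the mixed-stage gene table (horizontal log axis), for genes with 1 listed transcript (left) and with several (right). Each grey point is a gene with a mixed-stage mean of at least 100 and red points are the netrin system; Dcc, Ntn1, Ntn3, Ntn4, Dscam and Unc5b lie within the main cloud, whereas Neo1, Unc5a, Unc5c and Unc5d lie far below their gene-level means.

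Of the ligands, Ntn1 stood highest in every pool. Ntn1, which encodes netrin-1, lies on chromosome 11 from 68209364 to 68386826 of GRCm38. Its mean was 6955 normalized counts in the E12.5 pool, 2564 in the mixed-stage pool and 302 in the P8 pool. In ppm these were 520, 115 and 16.8, so the level was lowest where E12.5 libraries were absent. Per kb of exon, netrin-1 RNA stood at percentile 93.5 of features with a mean of at least 10 in the E12.5 pool, at 84.5 in the mixed-stage pool and at 52.0 in the P8 pool. The limit on E12.5 percentiles given above applies here and to Dcc and Dscam below. Shh, a defining floor plate gene, had means of 364, 123 and 1.56 in the same pools, and Spon1, also on the floor plate list, had 8177, 3068 and 728. Whether floor plate RNA contributed to Ntn1 was not tested.

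Ntn3 and Ntn4 were much lower than Ntn1. Ntn3 (chromosome 17 from 24203831 to 24209387) had means of 362, 181 and 25.6 in the E12.5, mixed-stage and P8 pools. Its span shares 1732 bases with that of Tbc1d24, which had means of 1579 and 127 in the mixed-stage and P8 pools, and the strand used in counting is not stated in the sources used here. Ntn4 (chromosome 10 from 93641049 to 93745972), whose product netrin-4 is a component of basement membranes, had means of 289, 131 and 8.98. It was 1 of 2 members under a mean of 10 at P8, and it can rest, by the smallest value per read found, on at most 222 reads over all P8 libraries together. Per kb, Ntn3 and Ntn4 reached 5.37 and 5.93 ppm in the E12.5 pool against 90.6 for Ntn1.

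Dcc had the largest difference between pools of the members with an E12.5 value. It lies on chromosome 18 from 71253613 to 72351228 and encodes the main attractive netrin receptor. Its mean was 11527 normalized counts in the E12.5 pool, 5079 in the mixed-stage pool and 56.7 in the P8 pool. Its level per kb was at percentile 92.8 among features with a mean of at least 10 in the E12.5 pool, 83.4 in the mixed-stage pool and 5.99 in the P8 pool, where it was 24.1 among all features above 0. Neo1 (chromosome 9 from 58874679 to 59036614), which encodes neogenin, a receptor for netrins and for repulsive guidance molecules, had 6110 in the mixed-stage pool and 1482 in the P8 pool. Per kb it was the highest of the 10 members in both, with 31.4 and 9.46 ppm, at percentiles 91.8 and 79.4. The DCC family thus differed within itself at P8, where Neo1 stood at 9.46 and Dcc at 0.240 ppm per kb, while in the mixed-stage pool they stood at 31.4 and 17.3.

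Dscam (chromosome 16 from 96587452 to 97171113), an immunoglobulin-family adhesion molecule, had means of 2436, 1481 and 382 in the E12.5, mixed-stage and P8 pools. Per kb it was at percentiles 67.7, 63.7 and 49.2, a narrower span than for Dcc or Ntn1. Its paralog Dscaml1 had means of 434, 366 and 337, which are not on 1 scale. As log2 ratios of ppm over the P8 pool, Dscaml1 stood at 0.79 in the E12.5 pool and -0.20 in the mixed-stage pool. The medians of all genes compared were 1.72 and 0.52.

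The UNC5 receptors did not share a pattern. Unc5a (chromosome 13 from 54945151 to 55006018) had means of 1425 in the mixed-stage pool and 41.6 in the P8 pool, and 34 bases of its span are shared with Hk3. Unc5d (chromosome 8 from 28646717 to 29219671) had 751 and 1.12. Judged by the smallest value per read found, that P8 mean can rest on at most 27.7 reads over all libraries, and it is below the mean of 1.46 that 3 reads would give in the library with the largest value per read found. Set against a mean of 1.46 in place of 1.12, the mixed-stage level of Unc5d was 412-fold higher. Unc5c (chromosome 3 from 141465564 to 141834924) differed less, with 391 and 138. Unc5b (chromosome 10 from 60762594 to 60831581), which also serves in blood vessels, had 176 in the E12.5 pool, 226 in the mixed-stage pool and 273 in the P8 pool. It was the only member with a larger mean in the P8 pool than in the mixed-stage pool. The endothelial genes Pecam1, Cdh5, Cldn5 and Tek had means of 244 and 247, 27.2 and 36.1, 345 and 663, and 124 and 168 in the mixed-stage and P8 pools. In the E12.5 pool, Cdh5 and Cldn5 alone of these have 1 transcript, and had means of 48.3 and 39.0. These are not on 1 scale with the P8 means. As log2 ratios of ppm over the P8 pool, Cdh5 stood at 0.85 and Cldn5 at -3.66. Both lay below the median of 1.72 over all genes compared. The part of endothelial RNA in the Unc5b level was not tested.

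Within the UNC5 family the order therefore changed with the pool. Per kb the mixed-stage order was Unc5a (15.3 ppm), Unc5d (3.65), Unc5b (1.62) and Unc5c (0.915), and the P8 order was Unc5b (2.43), Unc5a (0.555), Unc5c (0.401) and Unc5d (0.00677). Among all 10 members the mixed-stage order per kb ran Neo1, Ntn1, Dcc, Unc5a, Dscam, Unc5d, Unc5b, Ntn3, Ntn4 and Unc5c. The P8 order was Neo1, Ntn1, Unc5b, Dscam, Unc5a, Unc5c, Ntn3, Dcc, Ntn4 and Unc5d. Without a spread over samples, no pair of neighbours can be said to differ, and Ntn1 (2.68), Unc5b (2.43) and Dscam (2.42) lay particularly close at P8. With the longest transcript in place of the union of exons, Unc5c moved from the tenth to the seventh place in the mixed-stage pool, since its union of exons (19.1 kb) is long.

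**Figure D3:**
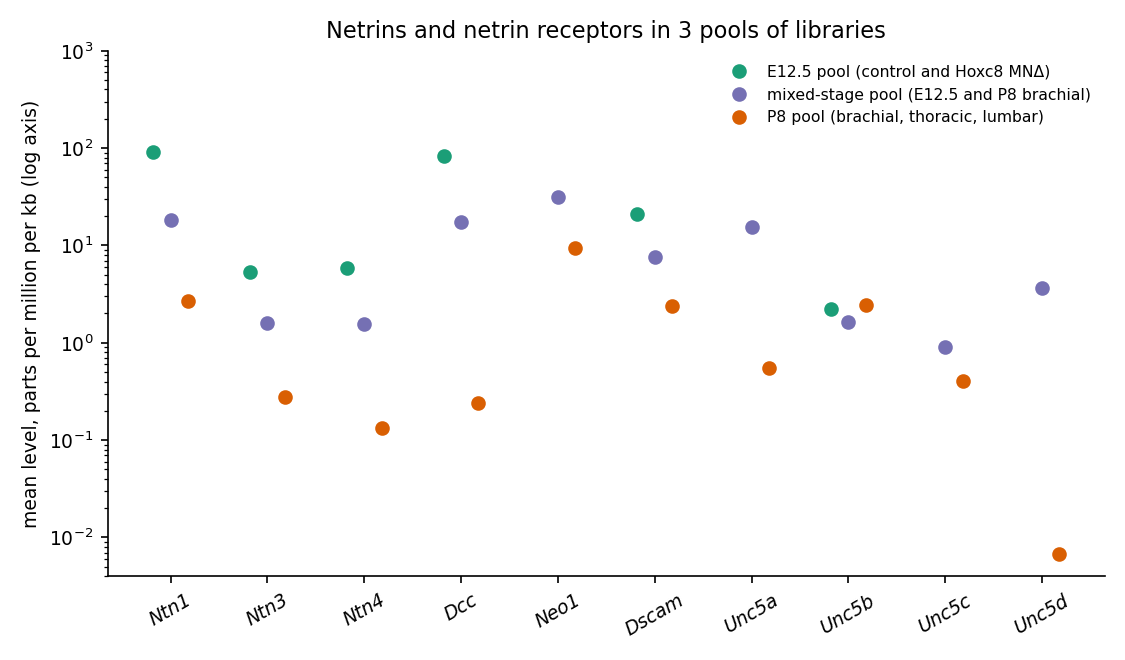
Level per kb of exon (vertical log axis, ppm per kb) of the 10 genes in the E12.5 pool (green), the mixed-stage pool (purple) and the P8 pool (orange); each point is the authors' mean over the libraries of 1 table, without error. Neo1, Unc5a, Unc5c and Unc5d have no green point because their reads are missing from the transcript table; Neo1 leads in the mixed-stage and P8 pools and Unc5d is lowest at P8.

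The pools were then set side by side as log2 ratios of ppm. They were normalized separately, and the E12.5 and P8 pools differ in stage, reporter and counted feature together. They also differ in cord region, since only the P8 pool holds thoracic and lumbar libraries, and in genotype, since only the E12.5 pool holds Hoxc8 MNΔ libraries. The study dissected more caudal cord segments for its comparison with Hoxc8 mutants than for its stage comparison, so the E12.5 and mixed-stage pools differ in this too. The mixed-stage pool is brachial by the study's description and contains P8 libraries itself. These causes cannot be told apart, and no test was possible. From the mixed-stage to the P8 pool the ratios were 9.07 for Unc5d, 6.17 for Dcc, 4.78 for Unc5a, 3.55 for Ntn4, 2.77 for Ntn1 and 2.50 for Ntn3. They were 1.73 for Neo1, 1.64 for Dscam, 1.19 for Unc5c and -0.59 for Unc5b. The spread within 1 receptor family was thus wide, from Unc5b, lower in the mixed-stage pool, to Unc5d.

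The median over all 15282 genes with a mean of at least 10 in either pool and above 0 in both was 0.52. Relative to that median the values were 8.55 for Unc5d, 5.65 for Dcc, 4.26 for Unc5a, 3.02 for Ntn4, 2.25 for Ntn1, 1.98 for Ntn3, 1.21 for Neo1, 1.12 for Dscam, 0.67 for Unc5c and -1.11 for Unc5b. At least 4-fold higher in the mixed-stage pool were 6 of 10 members (median 2.64), beside 18.9% of all genes, and 5 of 10 beside 13.7% once the all-gene median had been subtracted. Ntn3 lay just under that fold after that step. Dcc and Unc5d stood at percentiles 98.4 and 99.8 of all genes in this ratio, and Unc5b at 14.7. Ntn4 and Unc5d reached a mean of 10 only in the mixed-stage pool. Their high ratios therefore follow in part from the filter, and their place in these counts and percentiles is no separate evidence.

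For the 6 members with 1 transcript, the E12.5 pool could be set against the P8 pool directly. The log2 ratios were 8.09 for Dcc, 5.43 for Ntn4, 4.95 for Ntn1, 4.24 for Ntn3, 3.10 for Dscam and -0.21 for Unc5b. The median of all 9882 genes with 1 transcript was 1.72 on this scale, so relative to it the members stood at 6.37, 3.71, 3.23, 2.52, 1.37 and -1.93. At least 4-fold higher in the E12.5 pool were 5 of 6 members, beside 44.8% of all such genes, and 4 of 6 beside 20.1% after subtracting the median, when Dscam no longer reached that fold. Here too genes needed a mean of at least 10 in either pool, which Ntn4 reached only in the E12.5 pool.

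**Figure D4:**
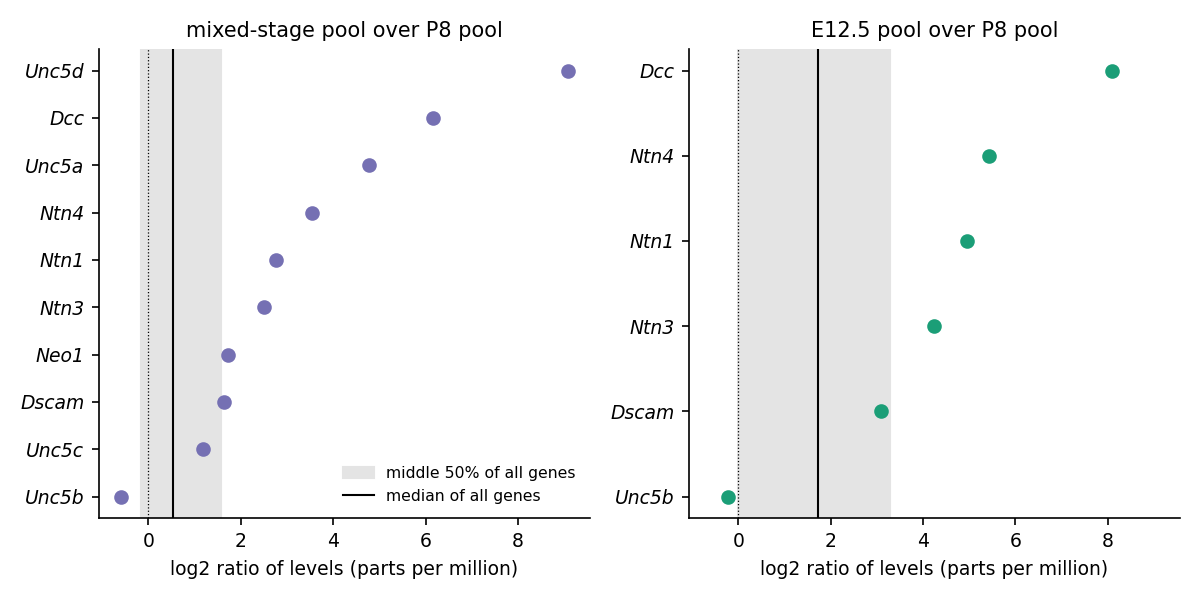
Log2 ratio of levels in ppm (horizontal axis) of the mixed-stage pool over the P8 pool for all 10 genes (left) and of the E12.5 pool over the P8 pool for the 6 genes with 1 transcript (right); each point is a gene, the grey band holds the middle 50% of all genes compared, the solid line is their median and the dotted line marks 0. Unc5d (9.07) and Dcc (6.17) lie farthest to the right on the left side, and Unc5b lies below 0 on both sides.

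Other genes of the netrin system were described from lists of 3 roles. Further ligands and family members included the netrin-G genes, Draxin, whose product binds DCC, the repulsive guidance molecules, which bind neogenin, and FLRT proteins, which bind UNC5 receptors. Of 9 such genes, 8 could be compared, 6 of these were at least 4-fold higher in the mixed-stage than in the P8 pool (18.9% of all genes were) and the median log2 ratio was 2.67 beside 0.52 over all genes. The highest per kb in the mixed-stage pool were Rgma, Draxin and Rgmb, with 18.6, 15.3 and 9.92 ppm per kb. At P8 they were Rgmb, Flrt3 and Rgma with 2.41, 1.57 and 0.757, and in the E12.5 pool Rgma, Draxin and Rgmb with 113, 58.9 and 45.0. Draxin had means of 4096, 1772 and 8.08 in the E12.5, mixed-stage and P8 pools, the steepest course of this group. Ntn5 was under a mean of 10 in both gene-level pools, with 2.32 and 1.38.

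Co-receptors and partners of the receptors lay close to the background in the mixed-stage over P8 ratio. Of 12 genes, 2 were at least 4-fold higher in the mixed-stage pool, beside 18.9% of all genes, and the median log2 ratio was 0.77 beside 0.52 over all genes. In the E12.5 over P8 ratio, the median of the 7 genes compared was 0.79, below the 1.72 over all genes. Cd47 and Adam10 were among the highest per kb in the mixed-stage pool with 18.6 and 18.1 ppm per kb, and Cd47 and Mcam at P8 with 26.4 and 10.4. In the E12.5 pool Adam10, whose protease sheds cell surface receptors, Robo3 and Lrrc4 led with 65.2, 56.2 and 16.8. Robo3, a receptor of commissural axons before they cross the midline, had means of 3609 in the E12.5 pool, 1874 in the mixed-stage pool and 2.04 in the P8 pool. Dcc and Robo3 thus both stood high in pools with E12.5 libraries, as did the interneuron gene Pax2 with 10167, 4698 and 0. This course was not particular to interneuron genes. The MN genes Mnx1 (3970, 2338 and 0.696) and Isl1 (520, 313 and 2.67) were also far lower in the P8 pool. The MN gene Slc5a7 differed less, with 282, 210 and 165. The parts of interneuron and MN RNA in the Dcc level were not tested.

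Cytoplasmic effectors had means of at least 10 in every pool in which they could be read. Of 23 genes, 7 were at least 4-fold higher in the mixed-stage pool, beside 18.9% of all genes, and the median log2 ratio was 1.12 beside 0.52 over all genes. Maged1, Cdc42 and Rac1 were highest in the mixed-stage pool with 214, 134 and 85.0 ppm per kb, and Cdc42, Rac1 and Fyn at P8 with 169, 132 and 111. Cdc42 and Rac1 are small GTPases that remodel actin in growth cones and in most other cells. In the E12.5 pool Maged1, which encodes a partner of UNC5 receptors in cell death signalling, Pak1, which encodes a kinase downstream of both GTPases, and Trim67, whose product binds DCC, led with 996, 149 and 95.2. Trim67 went from 11127 in the E12.5 pool to 4994 and 41.0 in the mixed-stage and P8 pools.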

How the data were processed

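RNA-Seq of sorted MNs was available for 18 samples, whose groups follow the stage, region and genotype labels. The authors aligned unique reads to GRCm38/mm10 with the HISAT program, counted them with featureCounts and ran DESeq2 on Galaxy; versions, annotation release, filters and strand setting are not given in the sources used here. The deposited signal is the base mean, the mean over all libraries of a table of counts divided by size factors. Of the 5 tables only this column was used. Their other columns hold the authors' own fold changes, standard errors, Wald statistics and p-values of each comparison, and none was read. Depth per sample is unknown and no test was made.

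Symbols and positions came from the RefSeq annotation of GRCm38.p6, and matched 93.0% of genes and 99.2% of transcripts. Exon lengths came from GENCODE M21 (known for 93.0%, 95.0% and 98.0% of features with a mean of at least 10 in the mixed-stage, P8 and E12.5 pools). The feature with the highest mean represented a symbol. A mean of at least 10 counted as measured. A mean of 1 read was taken as a value under 0.6 seen in at least 10 features that is no whole-number sum of smaller ones. All 10 members are named, and of each list up to 3 genes of highest level per kb in a pool; Ntn5, Dscaml1, marker genes and, for their course over pools, Draxin, Robo3 and Trim67 were picked after values were seen. The levels of 1 gene that this rule names among the co-receptors are not reported here. Members and lists were chosen with earlier results of these data known. Only scaling by the median ratio was tested on simulated pools, with as many features raised as lowered and no reads lost. The ppm scale used for the main ratios was not simulated, and the real pools differ from that setting. Python 3.11.15, numpy 2.4.6, pandas 2.3.3 and matplotlib 3.10.9 were used.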

Additional observations from a re-analysis of the deposited data

How the results depend on the processing

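Scaling moved the sizes of the pool ratios and no sign. For the E12.5 over the P8 pool the log2 ratios of Ntn1, Ntn3, Ntn4, Dcc, Dscam and Unc5b were 4.12, 3.41, 4.60, 7.26, 2.27 and -1.04 with the 8 oligodendrocyte genes left out of the sums. They were 3.63, 2.93, 4.12, 6.77, 1.78 and -1.53 with the median ratio over all genes, and 3.27, 2.57, 3.76, 6.41, 1.42 and -1.89 with the median ratio over genes with 1 transcript. Summing transcripts changes none of these 6 by construction, since each has 1 transcript, and all mixed-stage ratios, a comparison added after the data were seen, stayed within 1.5-fold of the value given. With the longest transcript as length, mixed-stage ranks per kb became 2 for Dcc, 3 for Ntn1, 7 for Unc5c, 8 for Unc5b, 9 for Ntn3 and 10 for Ntn4, and P8 ranks 5 for Unc5c, 6 for Unc5a, 7 for Dcc and 8 for Ntn3. The members' median percentile was 55.0 in the E12.5 pool, 54.0 in the mixed-stage pool and 33.0 in the P8 pool among features with a mean of at least 10, and 71.1, 63.2 and 31.6 among all features above 0. These medians cover 6 members in the E12.5 pool and 10 in the mixed-stage pool. In the P8 pool the first covers 8 members, without Ntn4 and Unc5d, and the second covers 10. They are therefore not a comparison of 1 set of members over pools. Counts of members measured were within 1.5 times under minimums of 1 and 50.

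No paired analysis was possible because the tables hold no values per sample, and for the same reason no replicate was left out. How far the libraries of a pool differ is unknown.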
